A study of Mus musculus with 34 samples.

Results

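The effect of low-density lipoprotein (LDL) was examined in the libraries that the sample titles place in batch 1: 4 libraries of LDL-treated macrophages against 6 vehicle libraries, 10 of the 34 libraries of the series. All were chosen by title and treatment label, and no measured value entered the choice. The cells were bone marrow-derived macrophages (BMDM), which grow out of mouse marrow under macrophage colony-stimulating factor (M-CSF). The study asked how mutations found in clonal hematopoiesis change gene expression in such cells, and batch 1 held 2 of its genotypes. WT mice carried Vav-Cre alone (3 vehicle and 2 LDL libraries). Tet2KO mice carried Tet2fl/fl with Vav-Cre (3 vehicle and 2 LDL libraries). Vav-Cre, present in every group, recombines floxed alleles throughout the blood-forming lineage, so the deletion in Tet2KO was not limited to macrophages. Marrow came from mice aged 10 to 14 weeks and was cultured for 6 days with 10 ng/ml M-CSF. The cells then rested for 24 h and received 200 mg/dL LDL or vehicle for 24 h. The labels do not say whether the numbered replicates were separate mice, so p-values measure the spread between these libraries, which may be technical.

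LDL particles deliver cholesterol to cells. When sterol in the endoplasmic reticulum rises, INSIG proteins hold SCAP and the transcription factor SREBP2 there, and genes of cholesterol synthesis are transcribed less. Oxysterols and the sterol intermediate desmosterol activate the liver X receptors (LXR), which raise genes of cholesterol export such as Abcg1 and Abca1. Macrophages that take up more lipoprotein than they export store cholesteryl ester in droplets and become foam cells.

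Depth ran from 15171143 to 44449473 counts per library. Levels are given as CPM, counts relative to the library's total after scaling by edgeR's TMM factors, and the median log2 fold change of all 15481 genes tested was 0.00. Tet2 itself was counted at 17.2 to 35.3 CPM in the 5 WT libraries and at 16.8 to 24.3 CPM in the 5 Tet2KO libraries. These ranges overlap, and a count over the whole gene does not check the loss of part of it. All 12 macrophage identity markers were counted in every library, with a summed level of 26220 to 39080 CPM. Of the Tet2KO libraries, vehicle replicate 3 and LDL replicate 2 stood apart: on the first principal component (43% of the variance) they lay at 59.4 and 64.5, and the other 8 libraries between -41.3 and 15. The summed level of 12 stromal markers was 5276 and 4962 CPM in these 2 libraries and 695 to 1261 CPM in the other 8, and all 12 were counted in every library. The sum of 10 monocyte markers, led by Fn1, set the same libraries apart, at 1506 and 1416 CPM against 355 to 654 CPM. They were 1 of the 3 Tet2KO vehicle libraries and 1 of the 2 Tet2KO LDL libraries. The number of calls, the named calls and the LXR and chemokine lists are given with and without them below. Some other results, among them Abca1, Il1b and Arg1, are given only with them included. The fit without both was not planned beforehand.

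LDL changed 54 genes across both genotypes (edgeR quasi-likelihood test with genotype as covariate, Benjamini-Hochberg adjusted p under 0.05, here "called"). That is 0.349% of the genes tested, with 29 higher (0.187%) and 25 lower (0.161%). Scaling by RLE size factors in place of TMM gave 48 calls, 31 higher and 17 lower. At an unadjusted p under 0.05, 1791 genes passed (11.6%). Changes were modest: 18 of the 54 reached a log2 fold change of 1 in either direction, the smallest being 0.38 and the largest 2.69 (Cxcl3). For 27 of the 54 the 4 LDL libraries lay wholly outside the range of the 6 vehicle libraries, against 240 of all genes tested (1.55%; 0.756% higher and 0.795% lower). For all 54 the treatments did not overlap within either genotype, as was so for 398 genes higher with LDL (2.57%) and 489 lower (3.16%) among all tested. Without both libraries that stood apart, 80 of 15028 genes were called (0.532%), 43 higher (0.286%) and 37 lower (0.246%), and 41 of the 54 were among them. DESeq2, run as an alternative on all 10 libraries, called 478 genes (3.09%), 227 higher (1.47%) and 251 lower (1.62%).

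**Figure D1:**
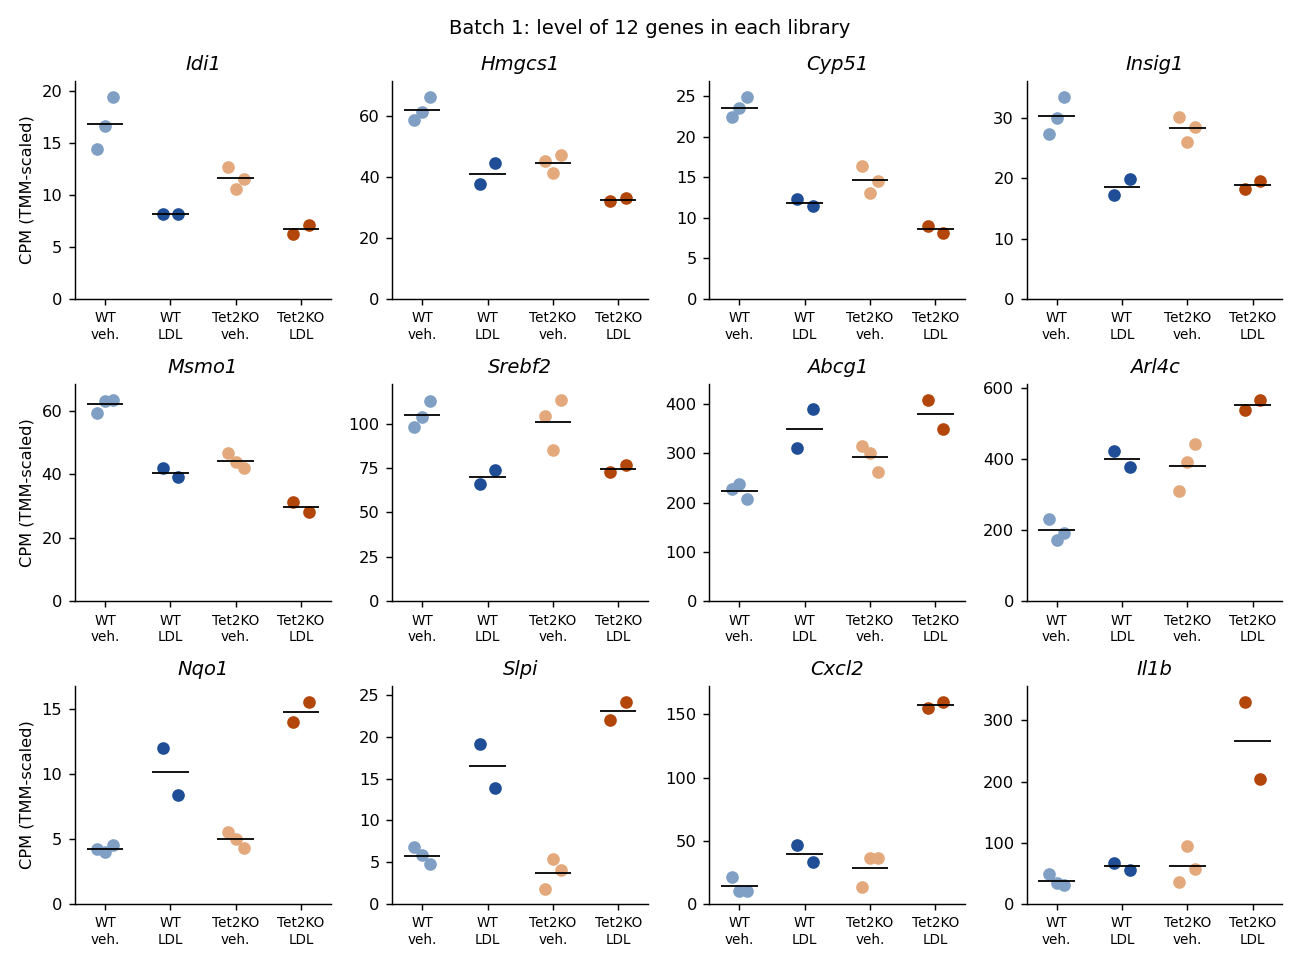
Level of 12 genes in each batch 1 library, in TMM-scaled CPM (linear axes from 0). Points are libraries, black lines group means. For the sterol genes Idi1, Cyp51 and Insig1 all 4 LDL libraries lie below all 6 vehicle libraries; for Nqo1 and Slpi all 4 lie above; for Cxcl2 and Il1b the WT LDL libraries lie within or near the Tet2KO vehicle range.

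Of the 21 genes of cholesterol synthesis tested, 4 fell, where 0.161% of all genes did: Idi1, Hmgcs1, Cyp51 and Msmo1. Idi1, which converts isopentenyl diphosphate to its reactive isomer, is at chromosome 13, 8885501 to 8892451, plus strand (GRCm38). It was counted at 14.4, 16.6 and 19.4 CPM in WT vehicle and at 8.14 and 8.16 CPM in WT LDL. In Tet2KO it stood at 12.7, 10.6 and 11.6 CPM with vehicle and 6.28 and 7.11 CPM with LDL. All 4 LDL libraries were below all 6 vehicle libraries, and the log2 fold change was -0.92 ± 0.11 (SE; edgeR adjusted p = 0.00901). Hmgcs1, the synthase at the entry of the mevalonate pathway, fell by 0.52 ± 0.07 on the log2 scale (edgeR adjusted p = 0.0168). Its levels were 58.8 to 66.3 CPM in WT vehicle against 37.6 and 44.5 CPM in WT LDL, and 41.3 to 47.3 CPM against 32.2 and 33.0 CPM in Tet2KO. The genotypes differed enough in level that WT LDL overlapped Tet2KO vehicle, while within each genotype there was no overlap. Of the 8 mevalonate genes tested, 2 fell (0.161% of all genes did), 0 rose and 6 did not pass. The median log2 fold change of the list was -0.13.

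The promoter sequences of Idi1, Insig1 and Hmgcs1 are shown as examples of called genes on the pathway that SREBP2 controls, and Hmgcs1 for a motif match. Each runs from 250 bases before to 50 bases after the annotated start (RefSeq, GRCm38.p6, 5′ to 3′ on the gene's strand). Idi1 is chr13:8885356-8885655, Insig1 is chr5:28071162-28071461 and Hmgcs1 is chr13:119690101-119690400, all on the plus strand. Capitals mark matches on either strand to CCAAT, the letters bound by NF-Y (ATTGG where the match is on the opposite strand), and to TCACNCCAC, a sterol regulatory element. Insig1 and Idi1 were set by the naming rule, and Hmgcs1 was added after the search because it held the second motif.
Idi1: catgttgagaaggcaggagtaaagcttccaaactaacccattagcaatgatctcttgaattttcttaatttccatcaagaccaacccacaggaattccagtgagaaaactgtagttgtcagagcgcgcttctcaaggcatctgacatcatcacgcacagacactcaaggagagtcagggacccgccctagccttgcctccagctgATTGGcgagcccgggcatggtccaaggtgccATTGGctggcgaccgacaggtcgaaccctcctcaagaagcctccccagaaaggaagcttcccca
Insig1: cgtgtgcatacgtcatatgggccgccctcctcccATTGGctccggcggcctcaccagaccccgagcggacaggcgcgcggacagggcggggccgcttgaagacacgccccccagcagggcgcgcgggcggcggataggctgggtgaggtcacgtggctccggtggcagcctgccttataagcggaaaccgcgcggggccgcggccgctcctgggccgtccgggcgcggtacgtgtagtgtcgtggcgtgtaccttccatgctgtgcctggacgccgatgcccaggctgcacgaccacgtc
Hmgcs1: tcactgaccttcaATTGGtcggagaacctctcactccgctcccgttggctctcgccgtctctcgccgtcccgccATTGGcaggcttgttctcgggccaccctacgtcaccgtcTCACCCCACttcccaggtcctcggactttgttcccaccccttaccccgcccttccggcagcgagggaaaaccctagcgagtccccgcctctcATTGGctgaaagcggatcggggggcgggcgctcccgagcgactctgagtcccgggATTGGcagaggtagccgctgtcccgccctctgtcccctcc
Idi1 held 2 CCAAT matches, Insig1 held 1 and Hmgcs1 held 4, along with 1 TCACNCCAC match. Among 32851 promoters of the same length, 37.4% held CCAAT, 1.24% held TCACNCCAC and 0.0152% held the LXR-type DR4 repeat, a pair of AGGTCA copies spaced by 4 bases, which was in none of these 3. Counted by gene, 41.1% of 27025 genes had CCAAT in at least 1 promoter. The same was so for 5 of 6 mevalonate genes with a promoter sequence, 10 of 10 genes from squalene to cholesterol, 5 of 8 genes of SREBP control and 5 of 11 LXR targets. TCACNCCAC was in 1 of the 6 mevalonate genes, Hmgcs1, and in 0 of the 10, 0 of the 8 and 0 of the 11 genes of the other lists, against 1.44% of all genes. A match describes letters only, and the motifs do not overlap each other.

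In the later steps, from squalene to cholesterol, Cyp51 and Msmo1 fell. Cyp51, the lanosterol demethylase (chromosome 5, 4081145 to 4104746, minus strand, GRCm38), was counted at 22.4, 23.5 and 24.9 CPM in WT vehicle and at 12.4 and 11.4 CPM in WT LDL. The Tet2KO libraries gave 16.4, 13.02 and 14.5 CPM with vehicle and 8.97 and 8.18 CPM with LDL. No LDL library reached the lowest vehicle library, and the log2 fold change was -0.88 ± 0.09 (edgeR adjusted p = 0.00901). Msmo1, the sterol C4-methyl oxidase, fell by 0.60 ± 0.06 (edgeR adjusted p = 0.00901), from 42.1 to 63.6 CPM over the vehicle libraries to 28.03 to 41.9 CPM over the LDL libraries. Sqle, the squalene epoxidase, had a log2 fold change of -0.54 ± 0.17 that did not pass (edgeR adjusted p = 0.218). Its Tet2KO libraries overlapped, at 13.7 to 21.9 CPM with vehicle and 11.4 and 17.1 CPM with LDL. Of the 13 genes tested in this arm, 2 fell (0.161% of all genes did), 0 rose and 11 did not pass. Their median log2 fold change was -0.45, 11 of the 13 were negative, and 9 had an unadjusted p under 0.05 in the downward direction, where 6.54% of all genes did.

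Of the genes that control the pathway, Insig1 and Srebf2 fell. Insig1 encodes an anchor of the SCAP and SREBP complex and is itself an SREBP target. It was counted at 27.4, 30.1 and 33.5 CPM in WT vehicle, 17.3 and 19.9 CPM in WT LDL, 30.3, 26.1 and 28.6 CPM in Tet2KO vehicle and 18.2 and 19.6 CPM in Tet2KO LDL. The 2 genotypes had like levels under each treatment, the treatments did not overlap, and the log2 fold change was -0.64 ± 0.08 (edgeR adjusted p = 0.0128). Srebf2, which encodes SREBP2, stood at 85.2 to 113.5 CPM with vehicle and 65.8 to 76.6 CPM with LDL, again with no overlap (log2 fold change -0.51 ± 0.09, edgeR adjusted p = 0.0471). In the list of SREBP control genes 2 of 12 tested genes fell (0.161% of all genes did), 0 rose and 10 did not pass (median -0.15).

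Of the LXR targets tested, 10 of 14 had positive estimates, and Arl4c passed. Arl4c, a small GTPase, was counted at 232, 173 and 193 CPM in WT vehicle and at 424 and 377 CPM in WT LDL. Tet2KO gave 309, 391 and 443 CPM with vehicle and 538 and 567 CPM with LDL (log2 fold change over both genotypes 0.77 ± 0.13, edgeR adjusted p = 0.0452). Within each genotype the treatments were separate, but the WT LDL libraries fell inside the Tet2KO vehicle range. Abcg1, the exporter that passes cholesterol to high-density lipoprotein (chromosome 17, 31057675 to 31117988, plus strand, GRCm38), had a log2 fold change of 0.51 ± 0.10 and did not pass (edgeR adjusted p = 0.0694). It stood at 228, 238 and 207 CPM in WT vehicle, 310 and 389 CPM in WT LDL, 315, 300 and 261 CPM in Tet2KO vehicle and 409 and 349 CPM in Tet2KO LDL. The lowest LDL library was thus just below the highest vehicle library. Without both libraries that stood apart, 5 of the 14 LXR genes tested were called higher, where 0.286% of all genes were. Abcg1 passed in that fit (edgeR adjusted p = 0.0497, log2 fold change 0.57). With each library left out in turn, Abcg1 passed in 0 of 10 fits. Among 11 other alternatives it passed in 2, DESeq2 and the fit without both libraries. Mylip, a ubiquitin ligase, lay at 105 to 122 CPM with LDL and 56.5 to 98.2 CPM with vehicle (log2 fold change 0.57 ± 0.11, edgeR adjusted p = 0.0826). Lpcat3, a phospholipid-remodelling enzyme, had a log2 fold change of 0.39 ± 0.07 (edgeR adjusted p = 0.0569) and no overlap between treatments. Abca1 was counted at 574 CPM in Tet2KO vehicle replicate 3 and at 180 to 256 CPM in the other 5 vehicle libraries. Its LDL libraries stood at 358 to 697 CPM (log2 fold change 1.00 ± 0.29, edgeR adjusted p = 0.184). With all libraries, 1 of 14 LXR genes rose (0.187% of all genes did), 0 fell and 13 did not pass, with a median of 0.26.

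The lists of lipid droplet, scavenger receptor and fatty acid synthesis genes held no call by edgeR. Plin2, the coat protein of lipid droplets, stood at 2729 to 4202 CPM with vehicle and 2817 to 4558 CPM with LDL (log2 fold change 0.06 ± 0.09, edgeR adjusted p = 0.919). Cd36, a scavenger receptor for modified lipoprotein and fatty acids, differed by genotype more than by treatment. It was at 1144 to 1429 CPM in WT vehicle, 1251 and 1475 CPM in WT LDL, 373 to 671 CPM in Tet2KO vehicle and 438 and 678 CPM in Tet2KO LDL (LDL log2 fold change 0.03 ± 0.17, edgeR adjusted p = 0.98). None of the 21 lipid droplet and fatty acid oxidation genes, 12 scavenger receptors or 13 genes of fatty acid synthesis passed, and their medians were -0.03, 0.10 and -0.06. The largest single changes in the droplet list were Pparg, the adipogenic nuclear receptor (log2 fold change -1.22 ± 0.31), and Hilpda, a lipase inhibitor (1.10 ± 0.28), each with an edgeR adjusted p of 0.137. By DESeq2, 1 droplet gene rose and 1 fell, 2 scavenger receptors rose and 1 fell, and no gene of fatty acid synthesis passed, where 1.47% of all genes rose and 1.62% fell.

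**Figure D2:**
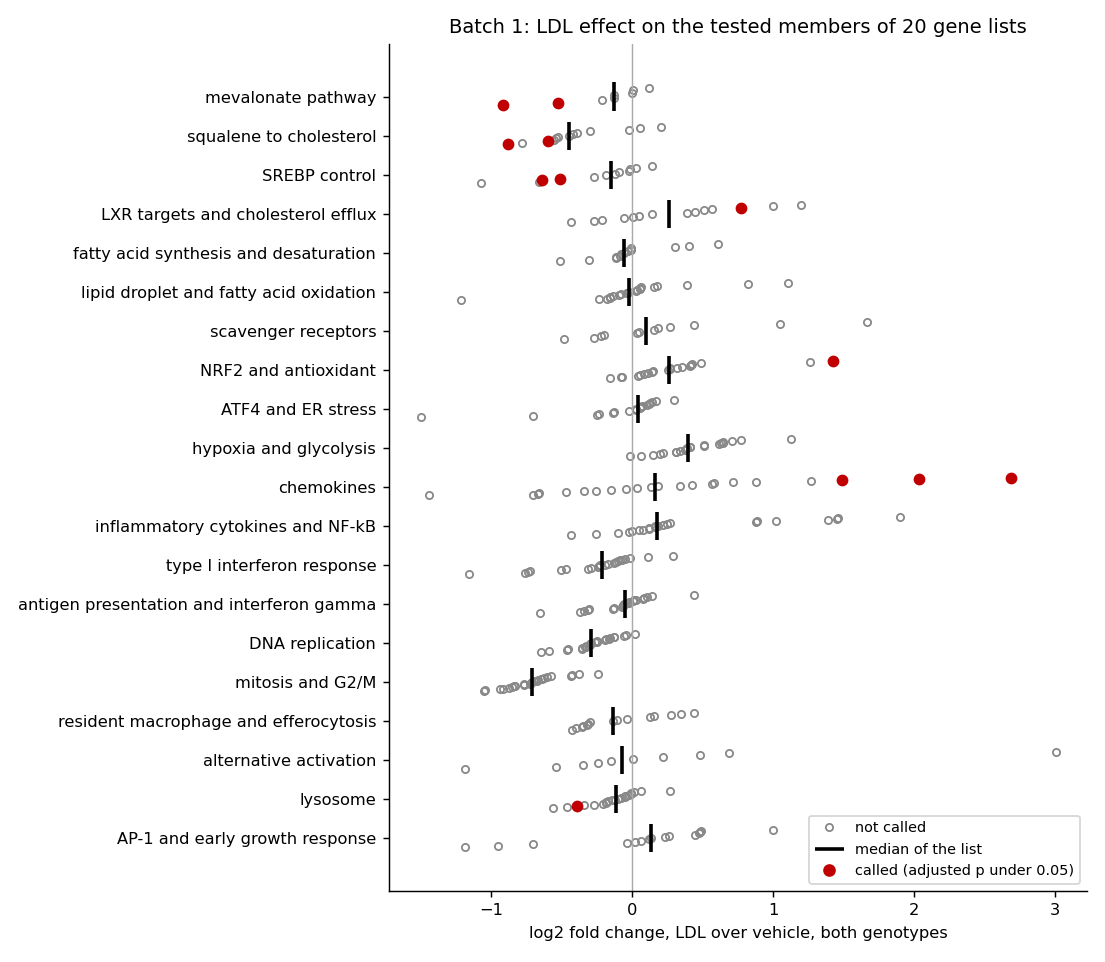
LDL effect on each tested member of 20 gene lists in batch 1 (x axis: log2 fold change, LDL over vehicle, both genotypes). Filled points passed the test, open points did not, and the bar is the list's median. The list medians run from -0.71 for mitosis and G2/M to 0.40 for hypoxia and glycolysis, while 12 points in all are filled.

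The 3 neutrophil-attracting chemokines Cxcl1, Cxcl2 and Cxcl3 rose. Cxcl3, Cxcl2 and Cxcl1 lie together on chromosome 5, between 90786103 and 90905938 (GRCm38), and all signal through CXCR2. Cxcl3 was counted at 6.65, 3.20 and 4.09 CPM in WT vehicle and 31.7 and 13.6 CPM in WT LDL. In Tet2KO it was at 5.72, 17.9 and 24.3 CPM with vehicle and 106 and 152 CPM with LDL (log2 fold change over both genotypes 2.69 ± 0.40, edgeR adjusted p = 0.0215). The Tet2KO LDL libraries were the highest of the 10, and the lower WT LDL library lay within the range of Tet2KO vehicle. Cxcl2 followed the same order, at 9.85 to 21.2, 32.8 and 46.6, 12.9 to 36.4, and 155 and 160 CPM in WT vehicle, WT LDL, Tet2KO vehicle and Tet2KO LDL (log2 fold change 2.03 ± 0.33, edgeR adjusted p = 0.0402). Cxcl1 had a log2 fold change of 1.49 ± 0.24 (edgeR adjusted p = 0.0394), from 6.50 to 24.1 CPM with vehicle to 13.2 to 68.1 CPM with LDL. In the chemokine list 3 of 22 tested genes rose (0.187% of all genes did), 0 fell and 19 did not pass, and the median was 0.16. Cxcl10, an interferon-induced chemokine, pointed the other way at -1.45 (edgeR adjusted p = 0.083). Without both libraries that stood apart, 1 of the 22 chemokines was called higher, where 0.286% of all genes were. That was Cxcl3 (edgeR adjusted p = 0.0396), while Cxcl1 and Cxcl2 had edgeR adjusted p of 0.063 and 0.0731.

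No inflammatory cytokine passed. Il1b, which encodes the interleukin-1β precursor, was at 30.3 to 49.0 CPM in WT vehicle and 55.5 and 67.4 CPM in WT LDL. In Tet2KO it was at 34.8 to 94.3 CPM with vehicle and 204 and 330 CPM with LDL. Every LDL library exceeded the vehicle libraries of its genotype, but the log2 fold change of 1.46 ± 0.34 did not pass (edgeR adjusted p = 0.112). Saa3, an acute-phase protein made by macrophages, had a log2 fold change of 1.90 ± 0.42 (edgeR adjusted p = 0.0987). Of the 22 cytokine and NF-kB genes tested, 17 were positive, with a median of 0.17, and 8 had an unadjusted p under 0.05 in the upward direction, where 5.03% of all genes did. DESeq2 called 2 of them higher, and 1.47% of all genes. Interferon-response genes had 20 of 22 estimates negative and a median of -0.21, and none passed by edgeR or by DESeq2. Ifit2 varied more between libraries than between treatments in Tet2KO, at 14.995 and 10.4 CPM in the 2 libraries that stood apart and at 51.6 to 90.0 CPM in the other 3.

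The antioxidant programme of the transcription factor NRF2 was led by Nqo1, a quinone reductase (chromosome 8, 107388225 to 107403206, minus strand, GRCm38). Nqo1 was counted at 4.21, 3.95 and 4.52 CPM in WT vehicle and 12.01 and 8.34 CPM in WT LDL, and at 5.55, 4.99 and 4.33 CPM in Tet2KO vehicle and 14.0 and 15.5 CPM in Tet2KO LDL. Both genotypes rose clear of the vehicle range (log2 fold change 1.42 ± 0.13, edgeR adjusted p = 0.00901). Gsr, glutathione reductase, had a log2 fold change of 0.49 ± 0.11 that did not pass (edgeR adjusted p = 0.112). Hmox1, heme oxygenase 1, overlapped between treatments at 533 to 1029 CPM with vehicle and 795 to 1088 CPM with LDL (log2 fold change 0.14 ± 0.17). Of the 20 NRF2 genes tested, 1 rose (0.187% of all genes did), 0 fell and 19 did not pass. Estimates were positive for 17 and the median was 0.26. DESeq2 called 6 higher, and 1.47% of all genes.

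Cell-cycle genes had lower estimates with LDL, without a single call by edgeR. All 25 mitosis and G2/M genes had negative log2 fold changes, from -1.05 to -0.24 with a median of -0.71. Of these, 24 had an unadjusted p under 0.05 in the downward direction, where 6.54% of all genes did. Ccna2, cyclin A2, stood at 16.0, 24.6 and 21.99 CPM in WT vehicle and 12.1 and 11.8 CPM in WT LDL. In Tet2KO it was at 35.5, 14.4 and 29.4 CPM with vehicle and 9.82 and 19.5 CPM with LDL, so the treatments overlapped (log2 fold change -0.83 ± 0.26, edgeR adjusted p = 0.23). Nusap1, a spindle protein, had a log2 fold change of -0.92 ± 0.22 (edgeR adjusted p = 0.118) and Aurka, a mitotic kinase, one of -0.64 ± 0.16 (edgeR adjusted p = 0.12). DESeq2 called 10 of the 25 lower, and 1.62% of all genes. All 25 stayed negative under every alternative fit and left-out library, with list medians from -0.83 to -0.56. Of the 25 DNA replication genes 24 were negative (median -0.29) and none passed by edgeR, against 2 by DESeq2. In bulk RNA, fewer cells of a kind and less RNA per cell cannot be told apart.

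Of the hypoxia and glycolysis genes, 21 of 22 had positive estimates, with a median of 0.40. For 14 the unadjusted p was under 0.05 in the upward direction, where it was for 5.03% of all genes. None of the list passed by edgeR, and DESeq2 called 5 higher, against 1.47% of all genes. Pkm, pyruvate kinase, was at 3130 to 4227 CPM with vehicle and 3870 to 5426 CPM with LDL (log2 fold change 0.41 ± 0.09, edgeR adjusted p = 0.0978). Vegfa, the endothelial growth factor, had a log2 fold change of 0.77 ± 0.21 (edgeR adjusted p = 0.15). Lysosomal genes had negative estimates in 19 of 22 cases with a median of -0.11. Atp6v0d2, a subunit of the vacuolar proton pump, had a log2 fold change of -0.46 ± 0.09 (edgeR adjusted p = 0.0688). It was far lower in Tet2KO, at 132 to 236 CPM, than in WT, at 381 to 504 CPM, under either treatment. The lists of ATF4 and ER stress (18 genes tested), antigen presentation (22), resident macrophage and efferocytosis (15), alternative activation (10) and AP-1 (15) had no call, with medians of 0.04, -0.05, -0.14, -0.07 and 0.13. DESeq2 called 0, 0, 1, 3 and 3 of them higher and 2, 0, 0, 1 and 2 lower, against 1.47% and 1.62% of all genes. Arg1, arginase 1, ran from 1.55 to 55.9 CPM with vehicle and from 23.2 to 288 CPM with LDL, a log2 fold change of 3.00 ± 0.69 that did not pass (edgeR adjusted p = 0.105).

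Among called genes with no overlap between treatments, at least 50 scaled counts in the higher group and a gene symbol other than a clone, gene model or pseudogene name, the 10 largest rises were Tarm1, Slpi, Nqo1, Bst1, Fam110c, Mgst2, Rab44, Itgb7, Slc6a12 and Sema4a. Slpi, a secreted inhibitor of neutrophil proteases, went from 1.79 to 6.77 CPM with vehicle to 13.9 to 24.2 CPM with LDL (log2 fold change 2.09 ± 0.30, edgeR adjusted p = 0.0192). Tarm1, an activating receptor of myeloid cells, had a log2 fold change of 2.28 ± 0.29 (edgeR adjusted p = 0.0128) at levels of 0.50 to 1.60 CPM with vehicle and 1.91 to 6.25 CPM with LDL. Itgb7, an integrin β chain, was at 48.1 to 70.5 CPM with vehicle and 99.7 to 139 CPM with LDL (log2 fold change 0.87 ± 0.10, edgeR adjusted p = 0.00901). Sema4a, a semaphorin, was at 57.9 to 69.4 CPM with vehicle and 92.6 to 135 CPM with LDL (log2 fold change 0.78 ± 0.09, edgeR adjusted p = 0.00901). Mgst2, a microsomal glutathione transferase, rose by 0.91 ± 0.11 (edgeR adjusted p = 0.00901). The other 5 rises had log2 fold changes from 0.84 (Slc6a12, a betaine and GABA transporter) to 1.42 (Nqo1).

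Under the same limits, which left out the pseudogene Rpl28-ps1 (-0.73), the 10 largest falls included the sterol genes Idi1, Cyp51, Insig1 and Msmo1. Cd83, a surface marker of activated antigen-presenting cells, had the largest of these falls, from 20.2 to 37.4 CPM with vehicle to 9.66 to 17.0 CPM with LDL (log2 fold change -1.20 ± 0.19, edgeR adjusted p = 0.0336). Tfrc, the transferrin receptor for iron uptake, was at 245 to 371 CPM with vehicle and 161 to 222 CPM with LDL (log2 fold change -0.82 ± 0.13, edgeR adjusted p = 0.03). Oip5, Hist2h2be, Lrrc27 and Fam134b, the last an ER-phagy receptor, had log2 fold changes of -0.97, -0.77, -0.71 and -0.54. Hist2h2be is a histone gene with near-identical copies, so its counts are uncertain. A gene outside the naming rule, chosen after its values were seen, was Mgll, the monoacylglycerol lipase. It was called lower at -1.77 ± 0.21 (edgeR adjusted p = 0.00901) and was at 67.9 to 102 CPM in WT vehicle, 20.7 and 24.9 CPM in WT LDL, 11.6 to 24.6 CPM in Tet2KO vehicle and 4.68 and 6.71 CPM in Tet2KO LDL. The WT LDL libraries thus lay near the highest Tet2KO vehicle library.

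Summed neutrophil and megakaryocyte markers were higher with LDL within each genotype. The summed level of 16 neutrophil and granule markers, led by Mmp8, was 187 to 376 CPM with LDL and 132 to 299 CPM with vehicle, without overlap within either genotype, and 13 of the 16 were counted in every library. The sum of 10 megakaryocyte markers, led by the platelet chemokine Pf4, was 719 to 1677 CPM with LDL and 355 to 1095 CPM with vehicle. Pf4 and Ppbp, which also stand in the chemokine list, had log2 fold changes of 1.27 ± 0.27 and 0.88 ± 0.18 (edgeR adjusted p = 0.0882 for both). None of the markers in these lists passed by edgeR, and the list medians were 0.44 and 0.35. In the main set 5 of 15 neutrophil markers tested rose and 6 fell, with a median log2 fold change of -0.28. Of 10 megakaryocyte markers 2 rose and 2 fell there (median -0.14). Over all genes of that set 12.9% rose and 10.6% fell. The part of these cell markers in the rises of Slpi, Cxcl1, Cxcl2 and Cxcl3 was not tested. T and NK cell markers summed to at most 28.1 CPM, B cell markers to at most 43.8 CPM and erythroid markers to at most 4.62 CPM in any library.

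The calls depended on single libraries. With WT LDL replicate 1 left out 10 genes were called, without Tet2KO LDL replicate 1 there were 15, and without Tet2KO LDL replicate 2 there were 18. Leaving out WT vehicle replicates 2 and 3 in turn gave 20 and 26. Leaving out Tet2KO vehicle replicate 3 gave 152 calls, which held all 54. The other 4 left-out libraries gave 38 to 49 calls. Of the 27 named genes that were called, 5 passed in all 10 of these fits: Nqo1, Itgb7, Sema4a, Cyp51 and Msmo1. Mgst2 lost its call without WT LDL replicate 1 (edgeR adjusted p = 0.052), and Idi1 and Insig1 lost theirs without WT LDL replicate 1 or Tet2KO LDL replicate 1 (edgeR adjusted p up to 0.0524 and 0.0679). Hmgcs1 passed in 5 of 10 fits and Srebf2 in 2, with edgeR adjusted p up to 0.0809 and 0.15. Cxcl1, Cxcl2 and Cxcl3 passed in 4 of 10, with edgeR adjusted p up to 0.135, 0.135 and 0.116, and failed without WT vehicle 2 or 3, WT LDL 1, Tet2KO vehicle 2, or Tet2KO LDL 1 or 2. Arl4c, Oip5 and Fam134b passed only without Tet2KO vehicle replicate 3, with edgeR adjusted p up to 0.136, 0.159 and 0.158. Tarm1 passed in 7 of 10, Fam110c and Slc6a12 in 6, Slpi, Bst1 and Lrrc27 in 5, Tfrc in 4, and Cd83, Rab44 and Hist2h2be in 2. The direction of all 27 was the same in every fit. Without both libraries that stood apart 19 of the 27 were called and 8 were not. Those 8 were Srebf2 (edgeR adjusted p = 0.063), Cxcl1 (0.063), Cxcl2 (0.0731), Rab44 (0.0797), Oip5 (0.0754), Tfrc (0.0561), Hist2h2be (0.0793) and Fam134b (0.0511).

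**Figure D3:**
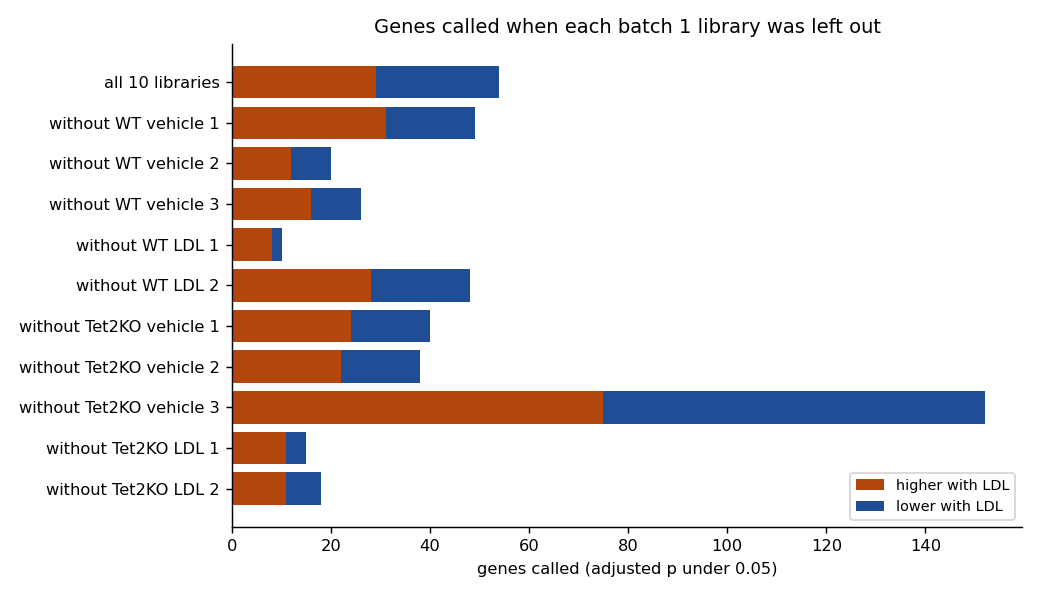
Number of genes called (edgeR adjusted p under 0.05) with all 10 batch 1 libraries and with each library left out in turn. Bars are stacked from genes higher and genes lower with LDL; the counts run from 10 without WT LDL replicate 1 to 152 without Tet2KO vehicle replicate 3, against 54 with all libraries.

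LDL effects within each genotype were then taken from a joint fit of 4 group means to the same 10 libraries. No gene passed in WT (707 at an unadjusted p under 0.05, 4.57%, with 2.17% higher and 2.4% lower) or in Tet2KO (1126, 7.27%, with 3.21% higher and 4.06% lower) by edgeR, whereas DESeq2 called 74 and 196. All 54 genes of the additive fit had the same sign in both genotypes, which that fit favours. The sterol genes had like effects: Idi1 changed by -1.04 ± 0.16 in WT and -0.79 ± 0.16 in Tet2KO on the log2 scale, and Cyp51 by -0.99 ± 0.13 and -0.77 ± 0.13. The chemokine estimates were larger in Tet2KO, as with Cxcl2 at 1.53 ± 0.45 in WT and 2.47 ± 0.44 in Tet2KO, a difference of 0.94 ± 0.64. The test of the difference itself, the LDL by genotype interaction, called no gene by edgeR (236 at an unadjusted p under 0.05, 1.52%, with 0.84% higher and 0.685% lower in Tet2KO) and 4 by DESeq2. For Il1b the interaction was 1.40 ± 0.55 with an edgeR adjusted p of 1.00. The smallest edgeR adjusted p, 0.76, belonged to Procr, the protein C receptor, and Alas1, the first enzyme of heme synthesis. Procr was at 64.4 to 69.9 CPM in WT vehicle and 70.9 and 54.3 CPM in WT LDL, but at 24.3 to 28.1 CPM in Tet2KO vehicle and 54.0 and 52.2 CPM in Tet2KO LDL. Alas1 was lower with LDL in WT (243 to 269 against 208 and 191 CPM) and higher in Tet2KO (135 to 137 against 179 and 184 CPM). Among interferon-response genes, 22 of 22 were negative in WT (median -0.49) and 6 of 22 in Tet2KO (median 0.08), and 0 of 22 had an unadjusted interaction p under 0.05.

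The same comparison was available in the 12 WT and Tet2KO libraries of the main set, which has its own table and was fitted separately with the same model. There 4301 of 18341 genes were called (23.5%), 2361 higher and 1940 lower. Of the 54 genes called in batch 1, 53 were tested in the main set. All 29 rises were called higher there, where 14.6% of the genes tested in both sets were. Of 24 falls 19 were called lower, where 11.3% were, and none was called in the opposite direction. The 48 shared calls were 90.6% of the batch 1 calls tested in both sets and 1.24% of the 3888 main set calls. Estimates were smaller in batch 1 for 32 of the 48, with median absolute log2 fold changes of 0.83 and 1.16. Idi1 changed by -0.92 ± 0.11 in batch 1 and -2.17 ± 0.10 in the main set, Nqo1 by 1.42 ± 0.13 and 2.90 ± 0.10, and Abcg1 by 0.51 ± 0.10 and 2.86 ± 0.09. Tarm1 and Cd83 had closer values, at 2.28 ± 0.29 and 1.68 ± 0.19, and at -1.20 ± 0.19 and -1.35 ± 0.12. Lists with 0 or 1 call in batch 1 had more there, where 23.5% of all genes were called. Some still had few: of 22 antigen presentation genes 1 rose and 1 fell, and of 22 interferon-response genes 0 rose and 4 fell. Among 22 lysosomal genes 3 rose and 3 fell. Of the mitosis genes 25 of 25 fell, and of the DNA replication genes 17 of 25. Of the NRF2 genes 17 of 20 rose, and of the droplet genes 13 of 21. Over all genes tested there, 12.9% rose and 10.6% fell. From squalene to cholesterol, 12 of 13 fell.

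**Figure D4:**
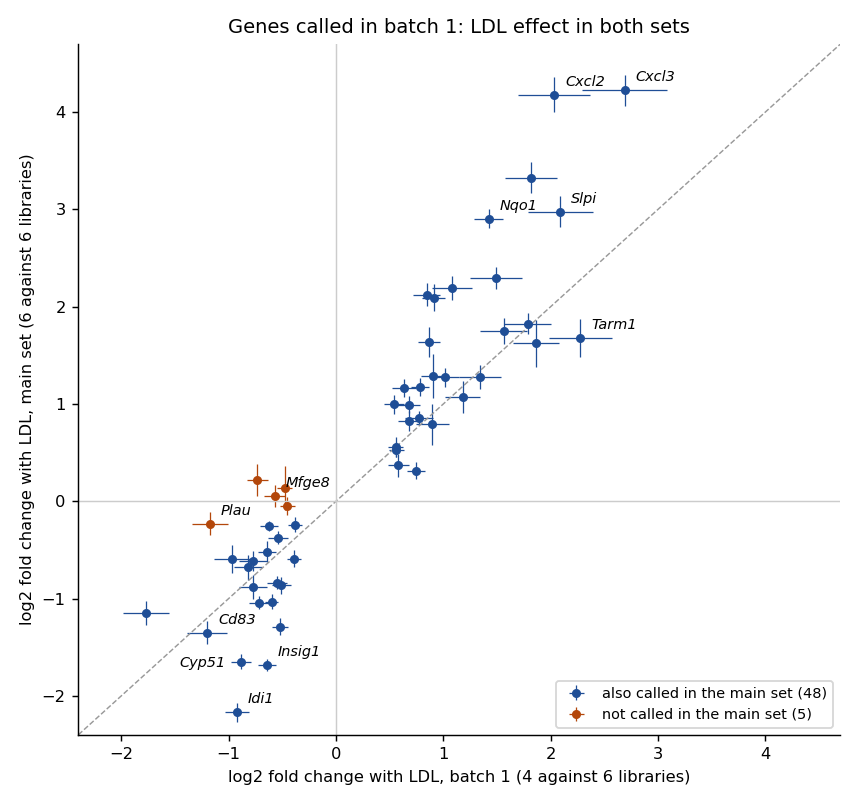
LDL effect in batch 1 (x axis) and in the main set (y axis), as log2 fold changes with standard errors, for the 53 genes called in batch 1 and tested in both. The dashed line marks equal effects; 48 genes were also called in the main set and 5 falls were not.

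The 5 falls not called in the main set were Plau, Mfge8, Fam20c, Rpl28-ps1 and Gm7331, named here after their values were seen. Plau, the urokinase plasminogen activator, went from 92.4 to 116 CPM in WT vehicle to 34.4 and 60.6 CPM in WT LDL, and from 33.3 to 44.2 CPM in Tet2KO vehicle to 13.3 and 17.9 CPM in Tet2KO LDL. Its log2 fold change was -1.17 ± 0.17 in batch 1 and -0.23 ± 0.12 in the main set (edgeR adjusted p = 0.0193 and 0.18). Mfge8, a bridge between apoptotic cells and phagocytes, stood at -0.57 ± 0.10 and 0.05 ± 0.11 (edgeR adjusted p = 0.0452 and 0.789). Fam20c, a secretory pathway kinase, stood at -0.45 ± 0.07 and -0.05 ± 0.09. Rpl28-ps1 and Gm7331 are a ribosomal pseudogene and an unnamed gene model, whose counts may be shared with near-identical copies. Whether the effects differ between the sets was not tested, since the tables were made and normalized separately.

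Vehicle levels differed between the sets, and the tables being scaled apart, the values are set side by side without a test. Idi1 was at 10.6 to 19.4 CPM in batch 1 vehicle libraries, against 52.0 to 82.8 CPM in main set vehicle and 13.3 to 15.8 CPM in main set LDL libraries. Batch 1 vehicle thus overlapped the LDL range of the main set and not its vehicle range. Abcg1 was at 207 to 315 CPM in batch 1 vehicle, against 23.1 to 34.2 CPM in main set vehicle and 166 to 241 CPM in main set LDL. Cyp51 was at 13.02 to 24.9 CPM in batch 1 vehicle, against 56.4 to 78.9 CPM in main set vehicle and 19.6 to 23.3 CPM in main set LDL. For Plin2 and Cd36 batch 1 vehicle was above main set vehicle: Plin2 stood at 2729 to 4202 CPM in batch 1 vehicle and at 1236 to 1783 CPM in main set LDL libraries, and Cd36 at 373 to 1429 CPM and 348 to 551 CPM. Arg1 did not, at 1.55 to 55.9 CPM in batch 1 vehicle, 222 to 542 CPM in main set vehicle and 1619 to 2075 CPM in main set LDL. Over the 21 genes of cholesterol synthesis, 14 had all 6 batch 1 vehicle libraries below all 6 main set vehicle libraries and 0 had them above, while among all 14990 genes tested in both sets 35.9% were below and 19.2% above. For the 14 LXR targets 1 was below and 9 above, and for the 21 droplet genes 0 below and 14 above. Lists of other functions differed as well: of the 22 lysosomal genes 1 was below and 20 above. For hypoxia and glycolysis, 60.9% were below and 0.0% above. Of the 25 mitosis genes, 23 were below. A median of -0.24 on the log2 scale separated batch 1 from main set vehicle levels over all genes.

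**Figure D5:**
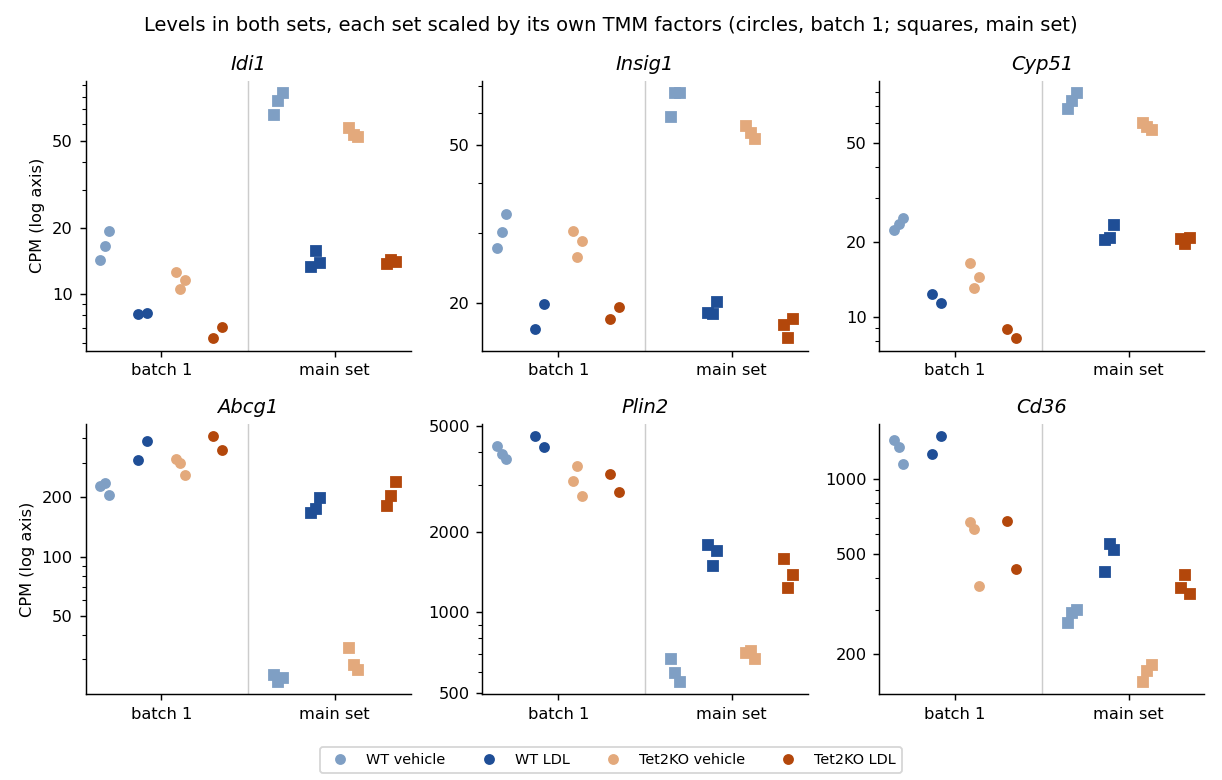
Levels of 6 genes in each WT and Tet2KO library of batch 1 (circles, 10 libraries) and the main set (squares, 12 libraries), in TMM-scaled CPM on log axes, with each set scaled by its own factors. For Idi1, Insig1 and Cyp51 batch 1 vehicle lies below main set vehicle, and for Abcg1, Plin2 and Cd36 above it.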

How the data were processed

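The deposited files hold whole-number counts per gene, one table for batch 1 and one for the main set; the file names speak of normalized values, but the columns sum to different totals and were treated as raw counts. Build mm10 is named in the submitters' processing notes, and no source used here names the aligner or counter. The labels' protocols name both Ribo-Zero depletion and poly-A selection. The batch 1 table has 25498 genes, of which 25418 had a name from the table or the annotation. Rows that share a symbol were kept apart.

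The genes tested had 10 or more counts in 2 or more libraries (3 in the main set). They were fitted with edgeR 4.0.16 in R 4.3.3: TMM factors, quasi-likelihood F test, genotype as covariate, Benjamini-Hochberg adjustment over all genes tested. The additive fit had 7 residual degrees of freedom and a common biological coefficient of variation of 0.187 (0.157 in the main set). LDL effects within a genotype and the interaction came from 4 group means over the same 10 libraries. DESeq2 1.42.0, limma-voom 3.58.1, other scalings, filters, covariates and left-out libraries were alternatives. Scripts were tested on simulated data. No pair of replicates agreed within sampling noise (chi-square per degree of freedom 8.27 to 91.72).

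Named genes were Tet2, a fixed set of anchors, the 10 largest rises and falls called with no overlap between treatments at least 50 scaled counts in the higher group and no clone, gene model or pseudogene name, the leading genes of each list, and the 2 genes with the smallest interaction p. The members and lists were chosen with earlier results of these data known. Motifs were searched on both strands of RefSeq promoters. Some genes of the lists are counted in the totals and not reported here by name.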

Additional observations from a re-analysis of the deposited data

How the results depend on the processing

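The count of genes called in both genotypes together (54) moved with the method. DESeq2 called 478, 227 higher and 251 lower, with 74 in WT, 196 in Tet2KO and 4 for the interaction. Leaving out the genotype covariate gave 9. Leaving out single libraries gave 10 to 152 in both genotypes together and 0 to 2 in Tet2KO alone. Library totals without scaling factors gave 1 call in Tet2KO, and no filter on low counts gave 3. The other scalings, filters and limma-voom gave 48 to 60 calls for both genotypes, and the main set count stayed within 3221 to 5995. The cause of these differences was not tested.

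Deviations from the group mean of same-numbered vehicle and LDL libraries correlated at 0.205 and 0.139 in WT and 0.452 and -0.492 in Tet2KO. With 2 LDL libraries in a genotype, the deviations of the 2 mirror each other. These values therefore cannot show whether same-numbered libraries were paired. A replicate block gave 15 calls, and a replicate block within genotype gave 102.

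Among values of single named genes, 1146 of 1426 kept their direction and side of the threshold, 206 lost and 50 gained the call, and 24 reversed, all of them for Tet2, Plin2, Cd36 and Alas1, none of which was called. Tet2 changed sign under DESeq2 (0.00095), RLE (0.003621), library totals (0.001912), at least 10 counts in every library (0.004446), the replicate block (0.03787), the replicate block within genotype (0.02288) and without both libraries that stood apart (0.04551), and ran from -0.229 to 0.1502 over left-out libraries. Plin2 was at -0.008984 with the replicate block and -0.006758 with the block within genotype, and Cd36 at -0.125 and -0.1378, with -0.08803 to 0.1505 over left-out libraries. Alas1 was at -0.0266 without the genotype covariate and -0.06035 without both libraries that stood apart, and ran from -0.04003 to 0.1782 over left-out libraries. Depth differed 2.93-fold between libraries, and the shallowest, WT LDL replicate 1, was also the one whose removal left the fewest calls.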

Other observations

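Called genes outside the naming rule, chosen after their values were seen, included Trem1, an amplifying receptor of myeloid inflammation, and Serpinb2, a plasminogen activator inhibitor. Trem1 had a log2 fold change of 1.78 ± 0.21 in batch 1 (edgeR adjusted p = 0.00901) and 1.83 in the main set. Serpinb2 had 1.82 ± 0.24 (edgeR adjusted p = 0.0133) and 3.33. Neat1, a nuclear long non-coding RNA, had the same estimate of 0.56 in both sets.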
